A study of Danio rerio with 4 samples.

Results

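Adult zebrafish hearts that lack LEN were compared with wild-type hearts at 3 days post-amputation (3 dpa), with 1 RNA-seq library for each genotype. Every gene with a scaled CPM (counts relative to the library total) of at least 1 in either of the 2 libraries was taken, which gave 15831 of 32520 Ensembl gene IDs. The choice used the level alone, so a gene near that level could enter only through the library in which it was higher. Such genes are called tested below, which means only that they reached this level. Both libraries came from fish of the Ekkwill strain. The wild-type fish carried LEN+/+ and the mutants were homozygous for the deletion of LEN. The injury was an amputation, which in zebrafish heart work removes the tip of the ventricle. The series also holds 1 uninjured heart library of each genotype, used below as a second comparison of the genotypes. Hearts were lysed directly after dissection and their RNA was extracted with Trizol. The number of hearts in a library is not given in the sources used here.

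LEN is an enhancer beside leptin b (lepb) that is known to switch on its neighbouring gene in injured zebrafish heart and fin. Leptins are secreted cytokine-like hormones. They bind the leptin receptor, which signals through Janus kinases (Jak) and Stat transcription factors. In zebrafish heart, lepb RNA is known to appear in the endocardium after injury.

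The libraries at 3 dpa were of like depth, with 35026983 counts in wild type against 34757291 in the mutant. The 13 mitochondrial genes took 11.3% of the counts in wild type against 11.9% in the mutant, and the 20 most abundant genes took 21.5% in each. The defining markers of heart muscle were abundant in both. At 3 dpa cmlc1, the cardiac myosin light chain gene, had 167057 counts in wild type against 155910 in the mutant, and the atrial natriuretic peptide gene nppa had 125049 and 137926. A log2 ratio is the mutant library against the wild-type library at 3 dpa unless another pair is named, on the scale of log2 CPM with a prior count of 2. A gene was called when its log2 ratio was at least 1 in size and its 95% counting interval left out 0. Such an interval covers counting error only and compares these libraries, so no difference below has a replicate check, and a change in the number of cells of a type cannot be told apart from a change in RNA per cell.

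The deletion was read out first at its linked gene. lepb (ENSDARG00000045548) had 2 counts in each uninjured library, 78 counts in wild type at 3 dpa and 2 in the mutant at 3 dpa. The wild-type library at 3 dpa was the high one and the other 3 lay under the floor of 3 counts. The scaled level in the mutant was lower by a ratio of 39.5 (95% counting interval, 10.6 to 332). On the log2 scale this was -4.24 (-8.38 to -3.40), the largest fall among the 111 genes called lower apart from that of 1 ID described below.

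The rest of the leptin pathway differed little. lepa, the second leptin gene, stayed below the filter at 3 dpa, with 24 reads in wild type and 13 reads in the mutant. lepr, the receptor, at 3 dpa had 1125 counts in wild type against 1180 in the mutant, with a log2 ratio of 0.05 (-0.07 to 0.17). The leptin and Jak-Stat list had 26 tested genes, of which 1 rose (stat5a), 1 fell (lepb) and 15 had ratios above 0. The median of the list was 0.06, beside a median of -0.0023 and 49.4% of ratios above 0 over all 15831 genes. stat5a, a transcription factor activated by cytokine receptors, had 140 and 211 counts in the uninjured wild-type and mutant libraries and 116 and 294 at 3 dpa. The mutant library was the higher one in both states, and at 3 dpa the log2 ratio was 1.31 (1.01 to 1.65). SOCS2, a feedback inhibitor of this pathway, had 192 counts in wild type against 343 in the mutant (0.81, 0.56 to 1.08) and stat5b had 413 and 680 (0.70, 0.52 to 0.88), both short of the threshold.

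Genes beside lepb were taken in their order in the RefSeq list, 12 tested genes on each side. Of these 24, 2 were called, SLC26A3 and sinup, where 2.79% of all tested genes were, and the median log2 ratio was -0.02. Both called genes reached the filter only through the library in which they were higher, wild type for SLC26A3 and the mutant for sinup. The nearest gene on one side, prrt4b, had a ratio of -0.13, and the nearest on the other, SND1, had 6062 and 6241 counts and a ratio of 0.02. hgfa, a hepatocyte growth factor gene and the next beyond SND1, had 83 counts in wild type against 151 in the mutant at 3 dpa (0.83, 0.45 to 1.25), against 117 and 119 uninjured. LAMTOR4, a subunit of the complex that anchors mTORC1 on the lysosome, had 1443 counts in wild type against 768 in the mutant (-0.93, -1.06 to -0.80). Its uninjured libraries held 1257 and 604 counts (-1.05), so the mutant library was the lower one in both states. SLC26A3, an anion exchanger 6 places from lepb, had 7 and 8 counts in the uninjured wild-type and mutant libraries and 53 and 14 at 3 dpa (-1.78). sinup, at the edge of the 12 places, had 11 and 72 counts uninjured and 22 and 88 at 3 dpa, with ratios of 2.54 and 1.88.

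Over all genes the 2 libraries were close. The log2 ratio lay within 0.5 of 0 for 14092 of the 15831 genes (89.0%), with quartiles of -0.13 and 0.16. A total of 442 genes (2.79%) were called, 331 of them higher in the mutant (2.09%) and 111 lower (0.701%). The calls were mostly at low levels. Below a mean of 2 scaled CPM 10.3% of the genes were called, from 10 to 30 scaled CPM 1.12%, and none of the 1187 genes from 100 to 1000 scaled CPM nor of the 92 above them. A difference of 4-fold or more was seen for 42 of the higher genes and 17 of the lower. The smallest called ratio was 1.001 and the largest not called 0.999 in size. Calls without a symbol numbered 20 higher and 12 lower, and 75 called genes share their symbol with another ID, so reads of near-identical copies may be split between them.

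**Figure D1:**
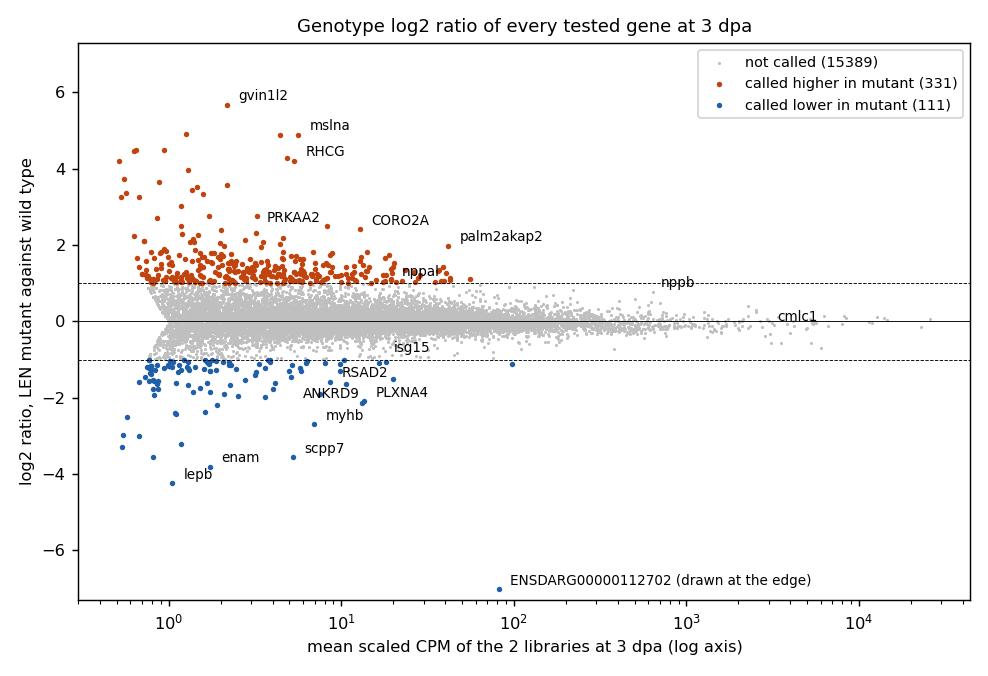
Each point is 1 of the 15831 tested genes, by its mean scaled CPM in the 2 libraries at 3 dpa (x, log axis) and its log2 ratio of the mutant against wild type (y). Colour marks the 331 genes called higher and 111 called lower, dashed lines mark ratios of 1 and -1, and the coloured points lie mainly at the left, at low levels.

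The genes called higher with at least 10 scaled CPM in 1 of the libraries numbered 77, and 15 were called lower. mslna, a mesothelin-like gene of the cell surface, had 10 and 1 counts in the uninjured wild-type and mutant libraries, 12 in wild type at 3 dpa and 426 in the mutant at 3 dpa. Its ratio of 4.89 (4.31 to 6.10) was followed by that of RHCG (ENSDARG00000003203, 1 of 3 IDs with this symbol), an ammonia transporter, with 7, 2, 19 and 397 counts in the same order (4.21). In both genes the mutant library at 3 dpa stood alone. PRKAA2, a catalytic subunit of the energy sensor AMPK, had 154 and 1247 counts uninjured and 94 and 544 at 3 dpa, so both mutant libraries were high. Its ratio at 3 dpa was 2.49. CORO2A, an actin-binding coronin, had 318 and 466 counts uninjured and 153 and 837 at 3 dpa (2.42, 2.18 to 2.69).

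The other genes of this group included adaptors and cytoskeletal regulators. palm2akap2, an anchor protein for protein kinase A, had 895 and 5188 counts uninjured and 648 and 2591 at 3 dpa, with a ratio of 1.98 (1.86 to 2.11). tns2a and TNS1 encode tensins and PXN (1 of 2 IDs) encodes paxillin, which link integrins to actin. Their ratios at 3 dpa were 1.66, 1.11 and 1.68. TNS1 was the most abundant gene called higher, at 1353 counts in wild type against 2966 in the mutant, and it was as far apart uninjured, at 1801 and 3923. The kinase HIPK2 rose with a ratio of 1.73, the transcription factors nfixa and hivep2b with 1.81 and 1.75, and the mitochondrial iron importer SLC25A37 with 1.79. PXDN, a peroxidase that cross-links collagen IV in the basement membrane, had 1034 and 2288 counts (1.13).

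Some of the higher genes had like levels in the uninjured libraries. They were picked for a call at 3 dpa and an uninjured ratio within 0.3 of 0, so a difference between the states is part of that choice. tnfrsf11b, which encodes the decoy receptor osteoprotegerin, had 298 and 305 counts uninjured and 238 and 859 at 3 dpa, so only the mutant library at 3 dpa was high. Its uninjured ratio was 0.04, its ratio at 3 dpa was 1.82 (1.62 to 2.05), and their difference was 1.78 (1.48 to 2.09). NGFR (ENSDARG00000088708, 1 of 2 IDs), a neurotrophin receptor, had 890 and 885 counts uninjured and 1055 and 2251 at 3 dpa (1.07, 0.97 to 1.18). notum1b, of the Notum family of secreted Wnt inhibitors, had 176 and 168 counts uninjured and 259 and 584 at 3 dpa (1.15). MYBPC1, a myosin-binding protein known from slow skeletal muscle in mammals, had 680 and 567 counts uninjured and 664 and 1485 at 3 dpa (1.14). ntd5 and si:dkey-32e6.6 had ratios of 1.03 and 1.48.

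Among the 15 lower genes with at least 10 scaled CPM the ID ENSDARG00000112702, which has no symbol, had 6273 counts in wild type at 3 dpa and 0 in the other 3 libraries. Against the floor of 3 counts in the mutant library it was at least 2118-fold lower. myhb, a fast skeletal myosin heavy chain gene, followed with 291 and 154 counts uninjured and 466 and 71 at 3 dpa (-2.69, -3.11 to -2.37). ANKRD9 had 628 and 226 counts uninjured and 828 and 190 at 3 dpa (-2.13), and PLXNA4, a semaphorin receptor subunit, had 628 and 160 and then 838 and 198 (-2.09). Both mutant libraries were low for these 2 genes.

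jac2, a gene for a jacalin-type lectin, had 11 and 6 counts uninjured and 459 and 123 at 3 dpa (-1.90, -2.22 to -1.63). RSAD2, which encodes the antiviral enzyme viperin, had 494 and 165 counts at 3 dpa (-1.59), and leap2, named for a liver-expressed antimicrobial peptide, had 420 and 197 (-1.10). eslec had 947 and 457 (-1.07). adh8a, an alcohol dehydrogenase gene, had 868 and 413 (-1.09), myrfl, of the myelin regulatory factor family, had 617 and 198 (-1.65), and CDNF, a neurotrophic factor of the endoplasmic reticulum, had 202 and 97 (-1.06). The 3 last were also called lower in the uninjured mutant library.

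The uninjured pair gave a second reading of the genotype from libraries that the comparison at 3 dpa does not share, with 1222 calls among the genes tested uninjured (7.79%) and 961 among those tested at 3 dpa (6.07%). Of the 331 genes higher at 3 dpa, 208 (62.8%) were called higher there too, and of all 15831 genes 3.63% were. Among the 15679 genes tested uninjured 619 were called higher (3.95%), and the 208 came to 33.6% of that number. Of the 111 genes lower at 3 dpa, 40 (36.0%) were called lower uninjured, where 2.44% of the 15831 genes were. Among the genes tested uninjured 603 were called lower (3.85%), and the 40 came to 6.63% of that number. The 208 and the 40 took no filter on the uninjured level, so not all need be among the genes tested uninjured. For example, ambn was called lower at 0.278 scaled CPM in uninjured wild type and 0 in the uninjured mutant. The ratio had the same sign in both states for 84.0% of the higher and 75.7% of the lower genes. Pearson's r of the paired ratios over the 15831 genes was 0.428, with a rank correlation (Spearman) of 0.392, given as a description since genes are not replicates and share the libraries and their depth. One library of each genotype in each state does not tell the deletion from other differences between the fish or the library preparations.

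Most genes higher in both states were farther apart before injury. Of the 208 genes higher in both states 167 had the larger ratio in the uninjured pair, with medians of 1.66 uninjured and 1.33 at 3 dpa. Of the 40 genes lower in both states 22 had the larger difference uninjured, with medians of -1.55 uninjured and -1.51 at 3 dpa. RPS6KA5, a kinase that phosphorylates histone H3 and CREB, had 83 and 928 counts uninjured and 62 and 294 at 3 dpa (2.19). CHRM2 (1 of 2 IDs), the muscarinic receptor through which the vagus slows the heart, had 52 and 337 and then 38 and 176 (2.13). lifra, a receptor of the interleukin 6 family that pairs with gp130, had 55 and 544 and then 65 and 275 (2.02). In all 3 both mutant libraries were above both wild-type libraries.

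The difference between the states left out 0 in its counting interval for 147 of the higher genes. It was larger at 3 dpa for 80 of them and larger uninjured for 67. Of the lower genes 47 had such an interval, and 45 of those were further down at 3 dpa. All these genes were chosen by their ratio at 3 dpa, which favours a larger difference in that state. The counts therefore describe the lists and carry no test. Genes with an uninjured ratio within 0.3 of 0 numbered 28 among the higher and 24 among the lower. A total of 12 genes were called in opposite directions in the 2 states. The wild-type uninjured library carried more RNA of liver genes than the others. The 29 liver IDs summed to 2300 scaled CPM there, against 600 in the mutant uninjured library, 698 in wild type at 3 dpa and 746 in the mutant at 3 dpa. The part of this in the uninjured calls was not tested. Only 4 of the 29 liver IDs reached the filter at 3 dpa, and none of those was called there.

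**Figure D2:**
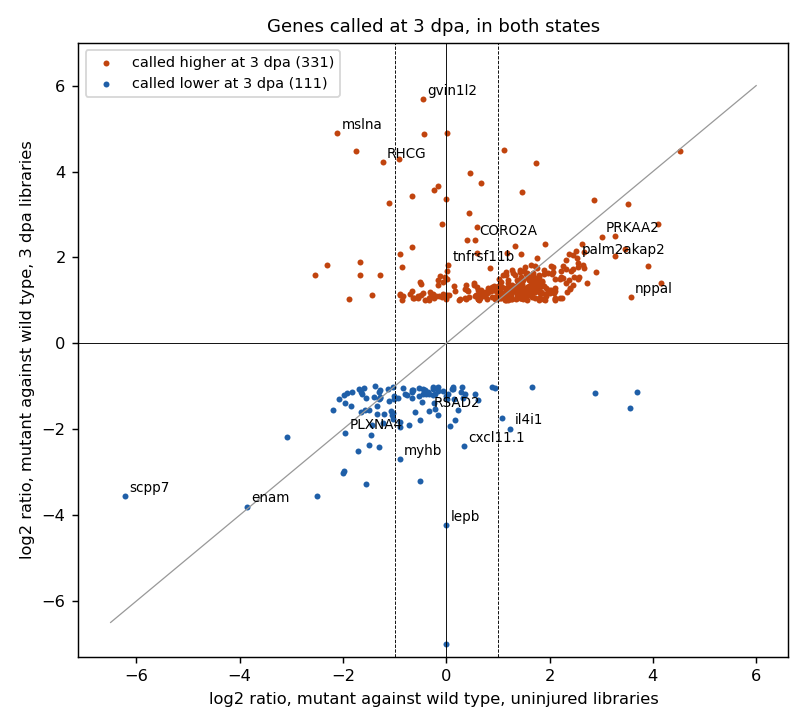
The 442 genes called at 3 dpa are placed by the log2 ratio of the mutant against wild type in the uninjured libraries (x) and at 3 dpa (y), with ENSDARG00000112702 drawn at -7. The grey diagonal marks equal ratios, dashed lines mark uninjured ratios of 1 and -1, and 208 of the 331 higher genes lie to the right of the dashed line at 1 as called genes, mainly below the diagonal.

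The share of genes called higher was larger in the classes of longer genes. A span from the RefSeq list was found for 13345 of the 15831 genes (84.3%). Of the genes that span under 5 kb 1.03% were called higher and 1.85% lower at 3 dpa, and of those that span 160 kb or more 6.39% and 0.328%. The median log2 ratio went from -0.10 in the shortest class to 0.11 in the longest. The uninjured pair ran the same way, from 0.753% to 10.3% called higher and from a median of -0.19 to 0.15. At 5 to 30 scaled CPM the share called higher at 3 dpa was 0.332% in the shortest class and 5.34% in the longest. Only 77.0% of the higher and 73.0% of the lower genes had a span, under the 80% set for such a check, so the spans of the called genes themselves were not compared. The part of this gradient in the calls was not tested. With the median of each span class taken off, a setting added after the data were seen, 319 of the 13345 genes were called, 240 higher and 79 lower. Without that step 255 of the same 13345 genes were called higher and 81 lower.

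**Figure D3:**
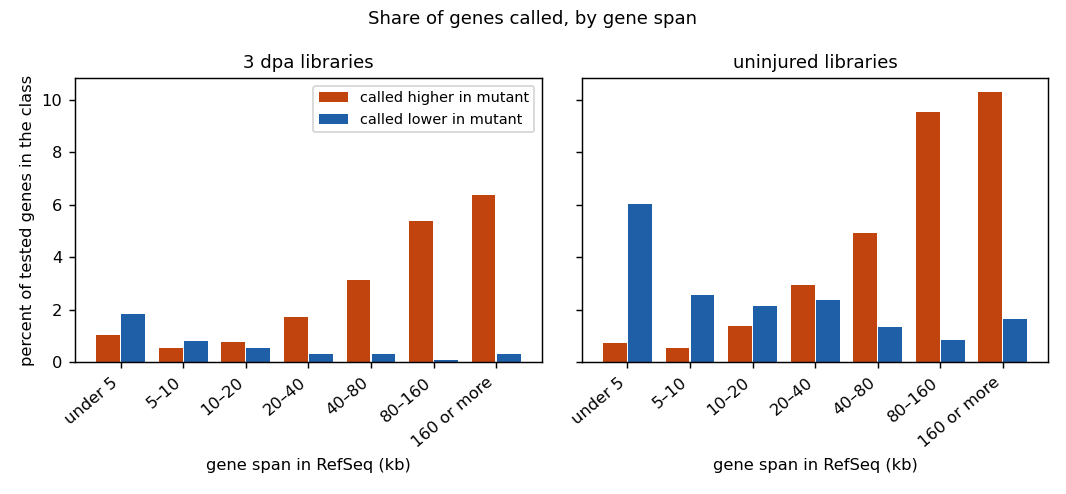
Bars give the percent of tested genes in each class of gene span (x, kb) that were called higher or lower in the mutant, at 3 dpa on the left and uninjured on the right. At 3 dpa the higher share reaches 6.39% in the longest class and the lower share is largest, at 1.85%, in the shortest.

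Gene lists for the tissue and the injury were read next, 35 in all. Their medians at 3 dpa ran from -0.56 for skeletal muscle to 0.52 for 4 pigment cell genes. Both depended on the filter on level: the medians were -0.71 and -0.0088 without it and -0.31 and 0.72 with at least 10 scaled CPM. The 0.72 was the ratio of csf1ra alone, which is also on the macrophage list. Of the 4 pigment cell genes gch2 had a ratio of -0.69, and 15 other IDs of that list were below the filter. Of the 35 lists, 17 had no called member. Each list is given beside the background of 2.09% called higher and 0.701% lower, and no set test was made.

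**Figure D4:**
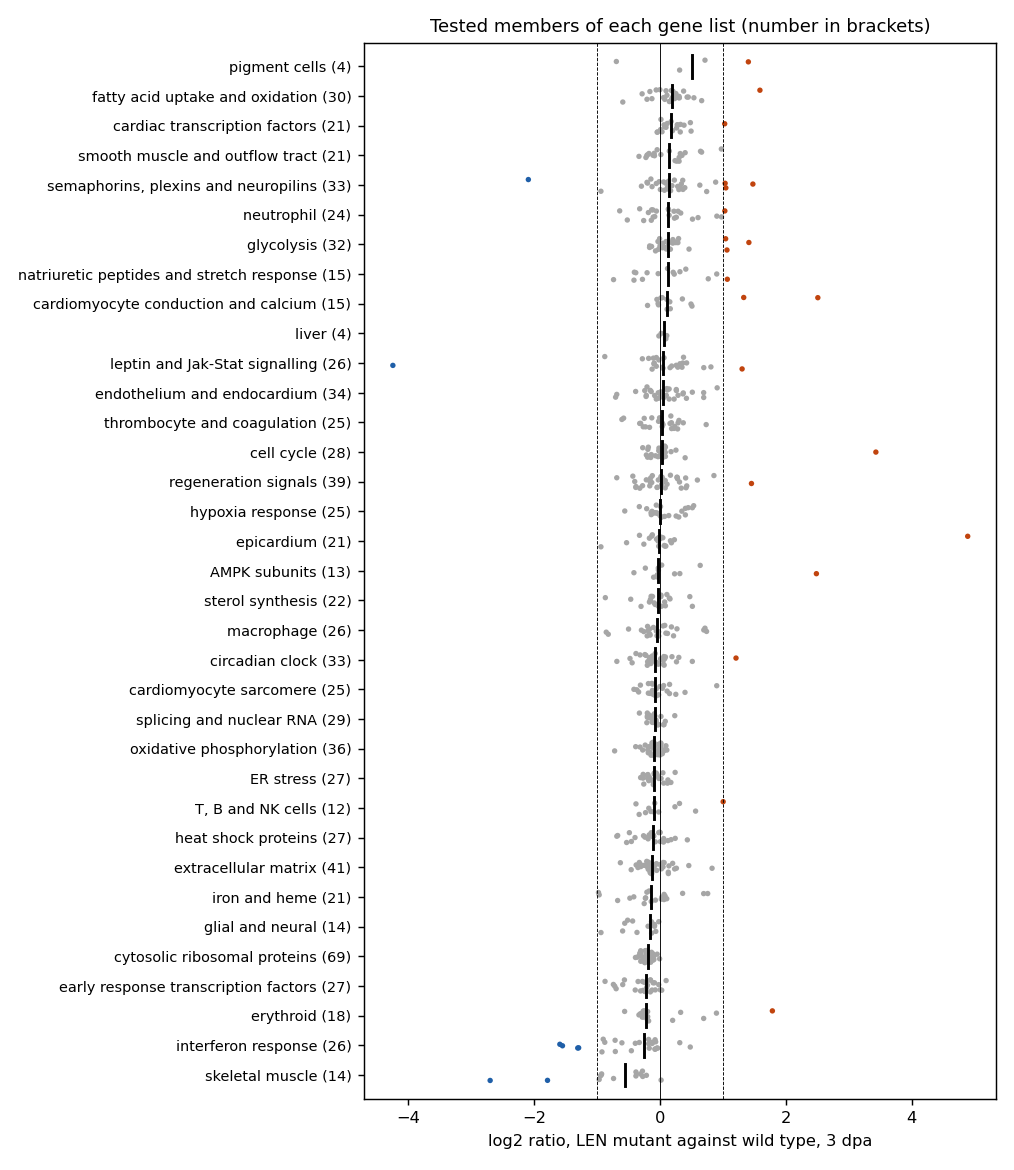
Points are the tested members of the 35 gene lists by log2 ratio of the mutant against wild type at 3 dpa (x), coloured where called higher (orange) or lower (blue), and black bars are list medians. Most lists sit within 0.3 of 0, the interferon and skeletal muscle lists lie to the left, and single members such as mslna, RRM2 and lepb stand far out.

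Most interferon response genes had ratios below 0. Of 26 tested members 4 fell, none rose and 2 had ratios above 0, with a median of -0.25 at 3 dpa and -0.10 uninjured. RSAD2 had 303 and 240 counts uninjured in wild type and mutant before the 494 and 165 at 3 dpa. ifit8, of a family that binds viral RNA, had 16 and 19 uninjured and 160 and 54 at 3 dpa (-1.55, -2.06 to -1.13). The antiviral GTPases mxb and mxc had 320 and 130 counts (-1.30) and 271 and 111 counts (-1.29) at 3 dpa, and both were also called lower uninjured. In all 4 the mutant library was the lower one at 3 dpa. isg15, a ubiquitin-like protein induced by interferon, had 1355 counts in wild type against 725 in the mutant (-0.92, -1.05 to -0.79), and mxa had 729 and 395 (-0.90), without a call. Other members were close, such as b2m with 16929 and 16277 counts (-0.08). gvin1l2, of a family of very large inducible GTPases and not on the list, went the other way, at 2 and 1 counts uninjured and 1 and 168 at 3 dpa (5.68, 4.88 to 12.69), and was chosen after its values were seen.

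Leukocyte lists stood nearer to 0 than the interferon list. The 26 macrophage genes had a median of -0.05 with no call, and 16 had ratios below 0. The ratios on this list ran from -0.85 to 0.74. csf1ra, a receptor for macrophage growth factor, had 385 and 614 counts uninjured (0.68) and 1930 and 3215 at 3 dpa (0.72, 0.64 to 0.80). The 24 neutrophil genes had a median of 0.14 at 3 dpa and -0.41 uninjured, and CSF3R, the receptor of granulocyte colony-stimulating factor, rose from 441 to 916 counts (1.03). Of 12 tested genes of the T, B and NK cell list, in which polr1g was matched by a synonym and is no lymphocyte marker, 1 rose. This was lck, a kinase of the T cell receptor, at 20 and 43 counts. Their part in the interferon values was not tested. The interferon-induced chemokine genes cxcl11.1 and cxcl11.3, looked at after their values were seen, both fell, from 72 to 12 counts (-2.39) and from 156 to 39 counts (-1.96). They had at most 9 counts in an uninjured library. At 3 dpa cxcl11.1 reached the filter only through the wild-type library. il4i1, an amino acid oxidase of immune cells, fell from 222 to 55 counts (-1.99), and cd83, a surface protein of activated dendritic cells and B cells, fell from 122 to 55 (-1.14). These 2 were also chosen after their values were seen.

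Heart muscle genes showed few calls. None of 25 sarcomere genes was called, and their median was -0.08. Of 15 conduction and calcium genes 2 rose. CACNA1C, the pore of the L-type calcium channel, had 1043 and 3848 counts uninjured and 788 and 2013 at 3 dpa (1.33, 1.21 to 1.45). HCN4 (ENSDARG00000061685, 1 of 2 IDs), the pacemaker channel, had 25 and 255 and then 12 and 80 (2.51, 1.83 to 3.73). In both genes the mutant libraries were the high ones in each state.

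Of 15 genes of the natriuretic and stretch list 1 rose, none fell and 8 had ratios above 0. The median was 0.12, and -0.03 without the filter on level. nppal, a natriuretic peptide gene, rose, with 75 and 908 counts uninjured and 477 and 1018 at 3 dpa (1.07, 0.92 to 1.23). nppb had 18252 and 31512 counts (0.77, 0.74 to 0.80) at 3 dpa and a ratio of 0.14 uninjured. ANKRD1 (ENSDARG00000075263, 1 of 2 IDs), a stretch-responsive sarcomere protein, had 571 and 1084 counts (0.90, 0.76 to 1.05) at 3 dpa. Its uninjured ratio was much the same, at 19 and 39 counts (0.98, 0.22 to 1.92). On the other side, the actin gene ACTA1 (ENSDARG00000036371, 1 of 2 IDs) had 18156 and 11052 counts (-0.73), and nppc, for C-type natriuretic peptide, had 460 and 350 (-0.41). Uninjured, this ACTA1 ID was higher in the mutant, at 8258 and 13019 counts (0.66), and nppc was lower (-1.48). The other, more abundant ACTA1 ID had ratios of 0.60 uninjured and -0.28 at 3 dpa. Of 21 cardiac transcription factors 19 had ratios above 0, with a median of 0.18, and gata4, which marks regenerating cardiomyocytes in zebrafish, rose from 522 to 1082 counts (1.03, 0.88 to 1.19). It was nearly as far apart uninjured, at 579 and 1134 counts (0.97).

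Glycolysis and fatty acid genes leaned upwards in the mutant, and oxidative phosphorylation genes did not. Of 36 tested oxidative phosphorylation genes none was called and 26 had ratios below 0. Their median was -0.08 at 3 dpa and -0.17 uninjured. Of 32 glycolysis genes 3 rose, none fell and 25 had ratios above 0, with a median of 0.12 at 3 dpa and -0.05 uninjured. GPI (ENSDARG00000103826, 1 of 2 IDs), which turns glucose 6-phosphate into fructose 6-phosphate, had 814 counts in wild type against 2201 in the mutant (1.41). PDK2 (ENSDARG00000059054, 1 of 2 IDs), which holds back pyruvate entry into mitochondria, had 970 and 2060 (1.07), and its uninjured libraries were higher, at 6889 and 5433. ENO1 (ENSDARG00000013750, 1 of 2 IDs), the enolase of most tissues, had 250 and 525 (1.04). For each of these symbols the other ID was more abundant and was not called. Those IDs had ratios of 0.21 for GPI, 0.30 for PDK2 and 0.04 for ENO1. The abundant GAPDH had 203143 and 183802 counts (-0.16), so the list did not move as a block. Of 30 fatty acid genes 24 had ratios above 0, with a median of 0.20 at 3 dpa and 0.18 uninjured. PPARA (ENSDARG00000054323), the receptor that drives fatty acid oxidation genes, rose from 70 to 218 counts (1.59, 1.23 to 2.03). It was farther apart uninjured, at 137 and 476 counts (1.79). The other copy, pparaa, had 232 and 193 counts at 3 dpa (-0.28) and was not called. Of 13 genes of the AMPK list PRKAA2 alone was called, and the median was -0.02.

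Signalling lists held scattered calls. Of 39 tested regeneration signals 1 rose, ERBB2, a receptor subunit for neuregulin, with 299 and 1019 counts uninjured and 242 and 676 at 3 dpa (1.45, 1.25 to 1.68). The ligand NRG1 had 87 and 54 counts (-0.68, -1.22 to -0.20), and the list median was 0.03. Among 33 semaphorins, plexins and neuropilins 3 plexins rose and PLXNA4 fell, with a median of 0.15. PLXNA2 had 168 and 478 counts (1.48), PLXNA1 (ENSDARG00000105452, 1 of 2 IDs) 302 and 635 (1.05) and plxnb3 84 and 177 (1.04). All 3 were also higher in the uninjured mutant library.

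Growth and stress lists moved little at 3 dpa. Of 28 cell cycle genes only RRM2 (ENSDARG00000020711, 1 of 2 IDs) was called, at 7 counts in wild type against 99 in the mutant (3.43, 2.71 to 5.15). The median of the list was 0.03 at 3 dpa and -0.64 uninjured. The proliferation marker mki67 had 2817 and 3408 counts at 3 dpa (0.26). None of 69 cytosolic ribosomal proteins was called and none had a ratio above 0. Their ratios ran from -0.39 for RPS29 to -0.00, with a median of -0.19 at 3 dpa and -0.35 uninjured.  The extracellular matrix list of 41 genes had a median of -0.13 at 3 dpa, without a call. The early response transcription factors had 3 of 27 ratios above 0 and a median of -0.21 at 3 dpa, also without a call. Uninjured, the median of those 27 genes was -0.46, with 7 called lower and 1 higher.

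The cell type lists of heart tissue showed a similar picture. The 34 endothelial and endocardial genes had a median of 0.05 and no call. NOTCH1 (1 of 2 IDs), the largest ratio among them, had 3494 and 6654 counts (0.91, 0.85 to 0.97). In the epicardial list of 21 genes mslna alone was called, and the median was -0.02. wt1b, a transcription factor of activated epicardium, had 1668 and 1417 counts (-0.25). Among 18 red cell genes SLC25A37 rose and 5 had ratios above 0. The alpha globin gene hbaa1 had 160255 and 110205 counts (-0.56), and the list summed to 12544 scaled CPM in wild type against 10110 in the mutant at 3 dpa. The 14 tested glial and neural genes all had ratios below 0, with a median of -0.16 and no call.

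Most skeletal muscle genes also had ratios below 0. Of 14 tested members of the list 2 fell, myhb and actc1b, and 1 had a ratio above 0. The median was -0.56 at 3 dpa and -0.29 uninjured. actc1b, an actin gene, had 183 and 127 counts uninjured and 240 and 69 at 3 dpa (-1.78, -2.23 to -1.43). TNNT3 (1 of 2 IDs), a fast troponin T, had 97 and 50 (-0.94), and NEB, the thin filament ruler nebulin, had 47 and 24 (-0.92). Some listed genes, such as ckma and ACTA1, are also abundant in heart, and ckma had 82575 and 72169 counts (-0.21). Outside the list, MYL11 (ENSDARG00000053254, 1 of 2 IDs), a fast myosin light chain, had 127 and 33 counts (-1.89), a gene chosen after its values were seen.

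Ionocyte genes were high in the mutant library at 3 dpa. Ionocytes are the ion-transporting cells of fish gill and skin. The list was put together after several of its genes were seen among the largest rises, so its counts describe these libraries and carry no test. It held 40 IDs, of which 20 reached the filter and 11 of those were called higher, several of them only because the mutant library carried them over it. RHBG, an ammonia transporter, had 16 counts in wild type against 358 in the mutant at 3 dpa (4.28). slc12a10.2, a sodium-chloride cotransporter of the fish ionocyte, had 1 and 97 counts and ponzr3 had 0 and 50, the latter at least 16.5-fold higher against the floor. None of these genes had more than 11 counts in an uninjured library.

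The ionocyte transcription factor genes foxi3a and foxi3b were below the filter, with 0 and 1 counts in wild type and 15 and 20 in the mutant. GCM2, which is needed for gill and for proton-pumping ionocytes in zebrafish, had 0 and 22 counts. Genes of the list that other tissues share did not follow, such as slc12a2 with a ratio of 0.07, and the summed level of the 40 IDs was 3279 scaled CPM in wild type against 3105 in the mutant. In the same library 6 of 30 tested genes of an epithelial list were called higher, 1 was called lower and 9 had ratios below 0. Over all tested genes 2.09% were called higher and 0.701% lower. In the uninjured pair 26 of these 30 genes had ratios below 0, with a median of -0.82. There 8 were called lower and none higher, where 2.44% of all 15831 genes were called lower. epcam had 212 and 93 counts uninjured in wild type and mutant, and 158 and 257 at 3 dpa. This list too was made after values were seen. The tight junction genes cldne, cldn3c and cldn8.2 had 46, 14 and 7 counts in wild type and 145, 59 and 42 in the mutant, whereas the keratin gene krt5 had 8221 and 5775 (-0.53). cldn3c and cldn8.2 reached the filter only through the mutant library. mslna was high in that same library, and the part of other tissue in its value and in those of the ionocyte genes was not tested.

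Genes of the enamel and spink2 lists were also among the lower ones, and the tissue their RNA came from was not tested. enam, which encodes enamelin of the tooth surface in mammals, had 125 and 7 counts uninjured and 126 and 7 at 3 dpa, the same split in both states (-3.86 and -3.80). Its relatives scpp7 and ambn fell from 374 to 30 (-3.56) and from 59 to 3 counts (-3.55, -6.63 to -2.70). Uninjured, scpp7 had 126 counts in wild type against 0 in the mutant and ambn had 8 and 0. Both were called lower there too. Of the 5 tested genes of this list 3 fell, and these 3 reached the filter only through the wild-type library. spp1 was not called (-0.68), and scpp8 had 97 and 178 counts (0.84, 0.49 to 1.23). The spink2 family is named for serine protease inhibitors. Of its 10 tested members 6 fell, none had a ratio above 0 and the median was -1.16. The wild-type library alone carried spink2.3, spink2.9, spink2.10 and spink2.11 over the filter, so these counts and the median depend in part on the filter. spink2.7 had 86 and 95 counts uninjured and 537 and 221 at 3 dpa (-1.29, -1.53 to -1.07). spink2.9, the furthest apart at 3 dpa, had 98 and 31 there (-1.61). It was also called lower uninjured, at 54 and 16 counts (-1.65). The enamel and spink2 lists were made after their values were seen. Reads may be shared among the members of such a family, which could not be seen from gene counts.

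**Figure D5:**
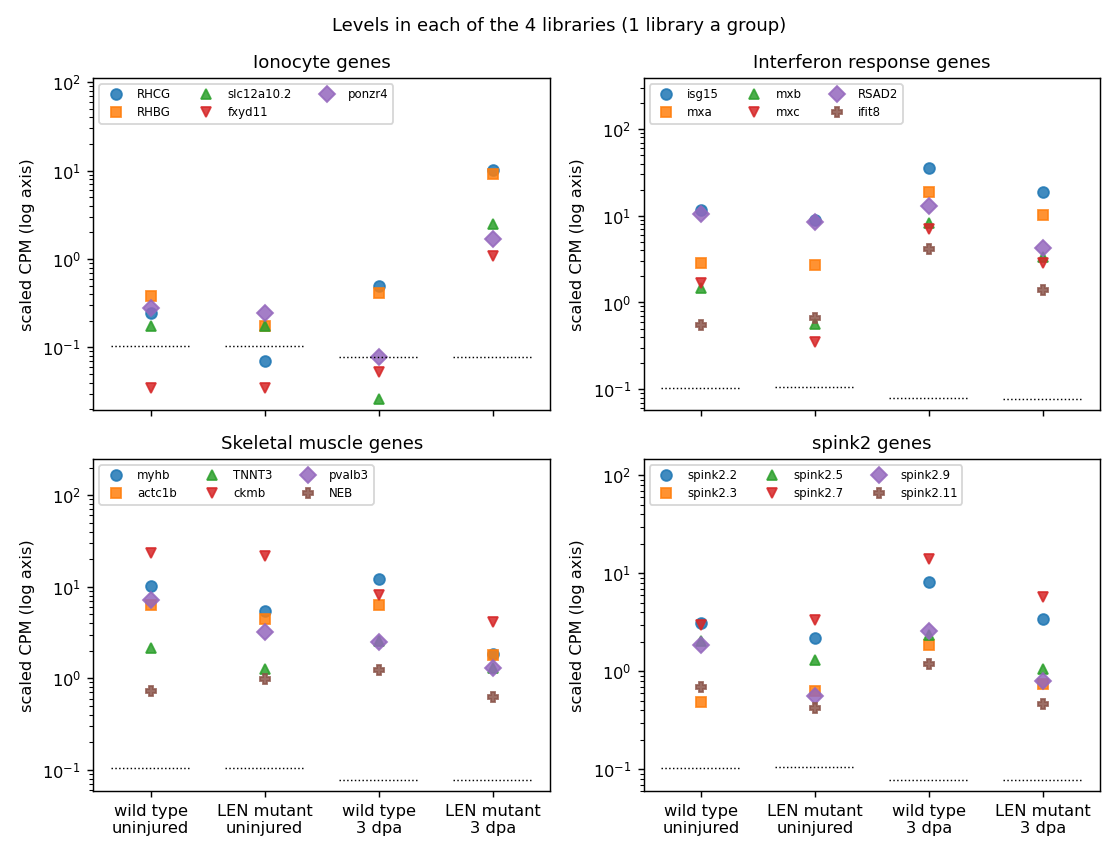
Scaled CPM (y, log axis) of 5 ionocyte genes and of 6 genes each from the interferon, skeletal muscle and spink2 lists in the 4 libraries (x), 1 library a group and so without error bars. Dotted lines mark the floor of 3 counts; the ionocyte genes are high in the mutant library at 3 dpa only, and the other genes drawn are higher in the wild-type than in the mutant library at 3 dpa.

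Called genes were also placed in the RefSeq gene order. Among 12003 placed genes, 226 called higher and 73 called lower, there were 11978 adjacent pairs, of which 27 were called the same way, 15 higher and 12 lower, and 3 in opposite ways. The pairs called lower included members of the spink2 family and neighbours among enam, scpp7 and ambn.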

How the data were processed

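RNA-seq read counts per Ensembl gene ID were analysed from 4 zebrafish heart libraries, 1 library a group. The authors deposited whole-number counts without normalization, and per the submitters' processing notes HISAT2, featureCounts and GRCz11 were used. Per the file headers, all 4 libraries were read on lane 8. Annotation release, strandedness and handling of multiply mapped reads are not given in the sources used here, so counts are uncertain for paralogues and for genes that overlap or lie antisense to others. A gene name table paired 29201 of the 32520 IDs with a symbol, in human style for many genes.

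Total counts ran from 31618442 to 35026983. Counts were scaled by TMM over all 4 libraries (edgeR 4.0.16, R 4.3.3), with factors of 0.910 (wild type) and 0.898 (mutant) uninjured, and of 1.095 and 1.118 at 3 dpa. Log2 CPM used a prior count of 2, which draws low genes towards 0. Genes with at least 1 scaled CPM in either library at 3 dpa were kept. Each ratio carries an exact 95% Clopper-Pearson interval from the binomial distribution of the 2 counts, and the difference of 2 ratios a delta-method interval. The floor of 3 counts equals 0.0782 scaled CPM in wild type against 0.0772 in the mutant at 3 dpa. The reads carry no molecular identifiers, so intervals and floors cover counting error only. With 1 library a group no variance between hearts could be estimated and no p-value is given. An additive edgeR model over the 4 libraries would take the difference between the states as its error and was not used. The code of the calling was tested on simulated counts with planted differences and counting error alone. Those counts held no variation between hearts or preparations, so that test cannot speak to such variation. The rest used scipy 1.17.1, pandas 2.3.3 and numpy 2.4.6 in Python 3.11.15, and figures matplotlib 3.10.9.

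The comparison, the 35 gene lists and the rule for naming genes were chosen with earlier results of these data known. Named genes were lepb, lepa and lepr; the 12 largest rises and falls among called genes with at least 10 scaled CPM; the 6 most abundant called genes of each direction; the 6 largest called in both states; the 6 largest with an uninjured ratio within 0.3 of 0; and in each list the called members, or the largest ratios. At most 2 IDs without a symbol were named per direction. Further genes and 5 more lists (ionocyte, epithelium, enamel and SCPP, cxcl11, spink2) were chosen after values were seen. Gene order and gene span came from the RefSeq list of assembly GRCz12tu, matched by symbol. That is not the build of the counts, so no coordinates are given. Alternatives changed the scaling, the prior count, the filter and the call rule.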

Additional observations from a re-analysis of the deposited data

Results flagged for a closer look

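A total of 12 genes were called in opposite directions between the genotypes in the 2 states, a difference that was not tested against variation between hearts. Of these, 8 were higher in the mutant at 3 dpa and lower in the uninjured mutant library. mslna stood at a log2 ratio of 4.89 at 3 dpa and -2.11 uninjured. The latter rests on 10 and 1 counts in the uninjured wild-type and mutant libraries. mslna, cldn3c and zgc:113232 were all below 1 scaled CPM in both uninjured libraries. The claudin genes cldne and cldn3c, which encode tight junction proteins, stood at 1.59 and 1.89 at 3 dpa, and oclnb, an occludin gene of the same junctions, at 1.02. cyp2y3, a cytochrome P450 gene, stood at 1.83 with 170 and 33 counts in the uninjured wild-type and mutant libraries and 12 and 49 at 3 dpa. The others were soul2 at 1.12, si:dkey-65b12.6 at 1.58 and ENSDARG00000114451 at 1.59. The 4 genes lower in the mutant at 3 dpa and higher uninjured were SLC5A11 at -1.15, zgc:113232 at -1.01, ENSDARG00000082789 at -1.13 and ENSDARG00000080128 at -1.51. ENSDARG00000082789 had 849 and 11001 counts in the uninjured wild-type and mutant libraries and 5101 and 2364 at 3 dpa. The liver and epithelial lists were higher in the wild-type than in the mutant uninjured library, and their part in these reversals was not tested.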

How the results depend on the processing

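The filter and the call rule moved the number of calls at 3 dpa most. Without a filter on level 968 genes were called, 650 higher and 318 lower, and with at least 10 scaled CPM 92 were, 77 higher and 15 lower. With the whole counting interval beyond 1 the count was 190, with 149 higher and 41 lower. Under the other scalings it ran from 426 to 488, and with a prior count of 10 it was 345. The share of calls that were higher was 74.9%, 67.1% without the filter and 83.7% at 10 scaled CPM. With a prior count of 10 lepb stood at a log2 ratio of -2.74. The median of the ribosomal protein list was -0.16 under total counts and -0.21 under RLE factors, where the median of all genes moved to 0.03 and -0.02, and that of the splicing list was -0.054 under total counts. Of 35 list medians 9 changed sign under some alternative, those of AMPK, sterol synthesis, hypoxia, natriuretic peptides, smooth muscle, epicardium, thrombocytes, liver and pigment cells. No named gene reversed. No paired analysis was possible because each group had 1 library and the labels give no replicate numbers. Depth limits genes near the floor, such as lepb with 2 counts in the mutant. Neither library could be left out.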

Other observations

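Outside the lists, 4 more genes that rose in the mutant at 3 dpa are given, chosen after their values were seen and not as a theme. il11ra, the receptor for interleukin 11, which is known to be needed for heart regeneration in zebrafish, had 266 and 894 counts in the uninjured wild-type and mutant libraries and 263 and 628 at 3 dpa, which is 1.23 on the log2 scale (95% counting interval, 1.03 to 1.45). Both mutant libraries were high. ANGPTL4, a secreted inhibitor of lipoprotein lipase, had 646 and 457 counts uninjured and 413 and 1089 at 3 dpa (1.38, 1.22 to 1.55), and BMP6, a bone morphogenetic protein, had 259 and 176 and then 147 and 311 (1.05, 0.77 to 1.36). For these 2 genes the mutant library was the lower one uninjured and the higher one at 3 dpa. SCN4B (1 of 2 IDs), a sodium channel beta subunit, had 898 and 3302 counts uninjured and 878 and 1808 at 3 dpa (1.02).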
